A study of Mus musculus with 6 samples.

Results

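Noncoding snoRNA host transcripts are spliced RNAs whose introns carry small nucleolar RNAs (snoRNAs). Of the 23183 gene symbols in the deposited tables, the 10 rows named *Gas5*, *Snhg1*, *Snhg3*, *Snhg4*, *Snhg5*, *Snhg6*, *Snhg7*, *Snhg8*, *Snhg11* and *Snhg12* were taken by symbol and not by a cut on their values. The list was drawn up with earlier results of these data known. Sorted CD4+CD8+ double-positive (DP) thymocytes of C57BL/6 mice aged 6 weeks had been sequenced in 3 wild-type libraries (WT, *Nsrp1* f/f, with no Cre) and 3 NSrp70-cKO libraries (cKO, *Nsrp1* f/f CD4Cre). Both genotypes carry the floxed *Nsrp1* allele, and only cKO mice carry CD4Cre, a Cre transgene driven by regulatory sequence of *Cd4*, which becomes active as thymocytes reach the DP stage. NSrp70, the product of *Nsrp1*, is a splicing factor of nuclear speckles. The comparison of the 2 genotypes asks how the RNA of DP thymocytes changes when NSrp70 is lost. Values are FPKM, fragments scaled to transcript length and to the number of mapped fragments, so levels could be compared between genes per unit length.

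The spliced exons of these genes encode no long protein. Once the intron is removed, it is trimmed to a snoRNA that joins a protein complex (snoRNP) and guides ribose methylation or pseudouridylation of ribosomal RNA, and the joined exons are exported. Ribosomes that enter the exported RNA meet an early stop codon, and nonsense-mediated decay (NMD) then degrades it, so several host RNAs are known to build up when translation or NMD is blocked. Many snoRNA host genes also start with a short run of pyrimidines, the terminal oligopyrimidine tract that ribosomal protein mRNAs share. DP thymocytes are small, short-lived cells of the thymic cortex that mostly rest between a burst of division and selection.

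The bases around the annotated start are shown for the 6 members that hold a pyrimidine run there and, for contrast, for *Snhg1*, in which the same search found none. The sequences come from RefSeq on GRCm38.p6, the assembly also called mm10, and each reads from the 5′ end and runs from 35 bases before the start to 30 bases from it. Capitals mark the first run of C followed by at least 4 C or T whose C lies within 10 bases of the start, and any TATAAA on the sense strand.
Gas5, chr1:161035131-161035195, plus strand: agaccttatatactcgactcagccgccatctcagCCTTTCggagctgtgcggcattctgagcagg
Snhg12, chr4:132308643-132308707, plus strand: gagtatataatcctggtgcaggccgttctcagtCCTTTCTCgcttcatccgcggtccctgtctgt
Snhg3, chr4:132353657-132353721, minus strand: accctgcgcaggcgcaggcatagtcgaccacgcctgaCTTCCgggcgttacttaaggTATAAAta
Snhg5, chr9:88522868-88522932, minus strand: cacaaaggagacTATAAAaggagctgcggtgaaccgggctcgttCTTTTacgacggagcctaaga
Snhg7, chr2:26640215-26640279, minus strand: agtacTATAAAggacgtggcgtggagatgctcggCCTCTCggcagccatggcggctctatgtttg
Snhg8, chr3:123508307-123508371, minus strand: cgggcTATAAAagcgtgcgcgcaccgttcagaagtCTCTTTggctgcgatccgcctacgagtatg
Snhg1, chr19:8723452-8723516, plus strand: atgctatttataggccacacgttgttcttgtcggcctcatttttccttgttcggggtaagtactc
Start sequences of 8 of the 10 members were searched. None was matched for *Snhg6*, and *Snhg4* was left out of the search. A run was found in 6 of these 8 members, and 34.4% of all 27025 genes with a start sequence hold 1. *Gas5* also has an upstream annotated start, not shown, that holds no run. Counted by start, 6 of 9 member starts hold a run, against 30.7% of all start sequences. With at least 7 pyrimidines after the C, only *Snhg12* kept a run, against 9.43% of genes. The TATAAA letters on the sense strand began between 35 and 20 bases before the start in *Snhg5*, *Snhg7* and *Snhg8*, 3 of the 8, against 1.84% of all start sequences, a window that was chosen after these sequences were seen. On either strand of the 300-base window around the start, CACGTG was found in 0 of the 8 members (7.15% of all windows) and CCGGAAG in *Snhg3* alone (8.86%). These matches describe letters and not sites.

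The annotation places most snoRNAs of the group in 3 members. *Gas5*, which first became known as a transcript that accumulates in growth-arrested cells, lies at chr1:161034422-161038539 and holds 10 annotated snoRNA loci. *Snhg1* lies at chr19:8723475-8726443 and holds 8 of them, and *Snhg12*, at chr4:132308623-132311024, holds 5. *Snhg3* (chr4:132348014-132353686), *Snhg5* (chr9:88521050-88522929) and *Snhg11* (chr2:158375638-158386145) hold 2 each, and *Snhg6* (chr1:9941959-9944118) and *Snhg8* (chr3:123507552-123508404) hold 1 each. *Snhg7* was located only in RefSeq, at chr2:26637176-26640244. GENCODE lists 20 of 25 *Gas5* transcripts and 14 of 18 *Snhg1* transcripts as retaining an intron, and, among the 8 members it holds, no transcript apart from 2 of *Snhg11* as an NMD target. *Snhg11* is the only one of the 8 that it lists as protein-coding. For the others, the missing label does not say whether NMD degrades them. A gene-level FPKM does not separate the listed transcripts. *Gas5* and *Snhg6* overlap *Zbtb37* and *Mcmdc2* on the other strand. *Snhg3* overlaps *Rcc1* on the same strand and *Gm17300* on the other. *Snhg4* overlaps 2 annotated genes, but its own strand was not recorded here, so their relative strand is not known. The values of these members may hold reads of the neighbour. The library kit keeps strand, but the strand setting of the counting is not given in the sources used here.

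The libraries differed before any gene was compared. Depth was estimated at 20.7 to 20.8 M fragments (M, mega) in the 3 WT libraries and at 13.2, 20.7 and 17.5 M in cKO 1, 2 and 3. The spread among WT libraries was 1.49 to 1.58 times counting noise and that among cKO libraries 31.4 to 64.7 times. The labels do not say whether the libraries of a genotype came from separate mice, so p-values measure only the spread between these libraries. *Nsrp1*, listed under its older symbol *Ccdc55*, was at 20.2, 20.7 and 21.1 FPKM in WT 1 to 3 and at 17.7, 15.8 and 15.0 in cKO 1 to 3 (log2 fold change -0.34 ± 0.077 SE, adjusted p = 0.00675). The FPKM of the whole gene also counts exons outside the floxed part. All 9 DP markers examined passed the filter (summed FPKM 5442 to 5519 in WT and 7184 to 9420 in cKO). Of 5 sex-linked genes, the 4 on the Y chromosome were listed at 0 in every WT library and were called higher in cKO, and the X-linked one was called lower, so sex and genotype cannot be told apart. S phase genes were called higher in 14 of 16 cases and G2/M genes in 14 of 14. Of 6 markers of mature single-positive cells 5 were called lower (summed FPKM 129 to 130 in WT and 101 to 124 in cKO). Both tested erythroid markers were called higher (summed FPKM of 4 markers 1.96 to 2.72 in WT, and 26.0, 12.3 and 26.6 in cKO 1 to 3). All B cell, dendritic and NK cell markers lay at or under 1.49 FPKM in every library, and the 4 myeloid markers summed to 3.84 to 4.28 FPKM in WT and 3.92 to 4.87 in cKO. The 5 thymic epithelial markers summed to 3.56 to 3.98 FPKM in WT and to 1.92, 3.67 and 2.61 in cKO 1 to 3, the order of the cKO libraries that the host transcripts also showed. Among them *Krt5* and *Foxn1*, a defining factor of these cells, were at 0 in every library, and the 1 tested, *Epcam*, was not called (adjusted p = 0.0964). The part of sex, cell cycle, depth and these cell types in the results was not tested.

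None of these host transcripts had a called change in mean level between WT and cKO. In WT most of the 9 tested members varied little between libraries, with the widest WT ranges in *Snhg7* (4.70 to 6.19 FPKM) and *Snhg3* (26.1 to 32.7). In cKO they spread more widely, and they did so together, with cKO 1 low, cKO 3 between and cKO 2 high. Of the 9 tested members, 0 were called higher and 0 lower by limma (adjusted p under 0.05), while 35.8% of all 10326 tested genes were called higher and 29.8% lower, 65.5% in either direction. Without adjustment, 1 member, *Snhg3*, had a p under 0.05. The cKO and WT values did not overlap in 1 of the 9 members, *Snhg3* again, against 72.5% of all tested genes. The median log2 fold change was 0.17 over the members and 0.039 over all tested genes. In sorted bulk cells, fewer cells with a transcript and less transcript per cell cannot be told apart.

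**Figure D1:**
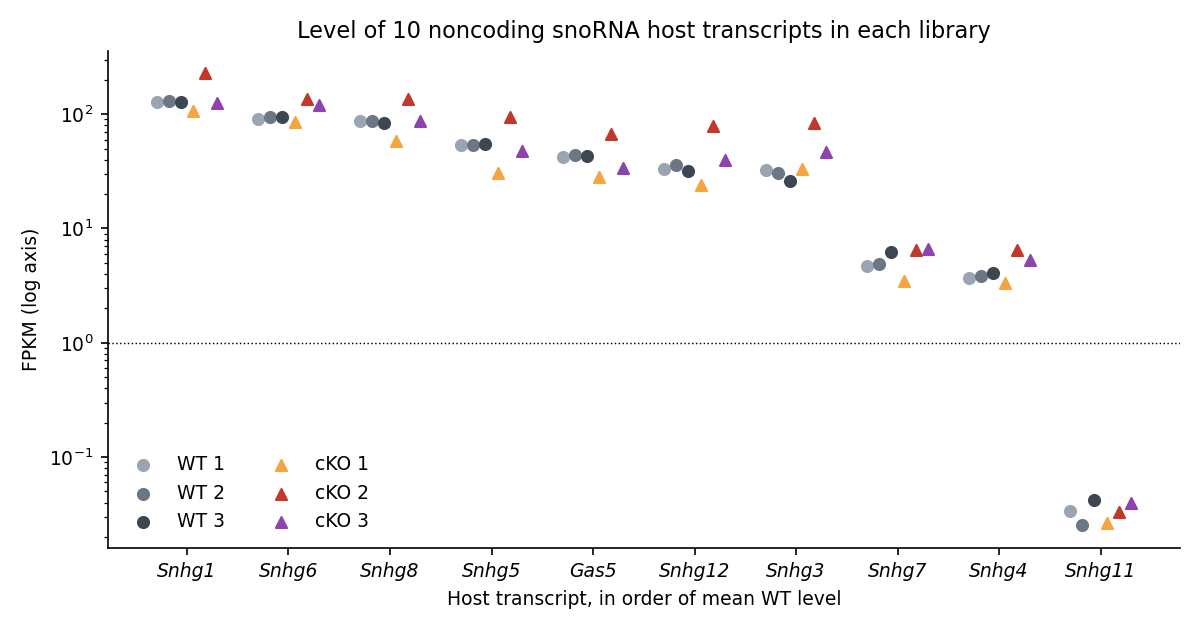
FPKM (log axis) of the 10 host transcripts in each library, in order of the mean WT level, with circles for WT and triangles for cKO libraries and a dotted line at the filter level of 1 FPKM. WT circles lie close together for most transcripts, cKO 2 is the highest point in 8 of the 9 transcripts above the line, and *Snhg11* lies far under it.

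*Snhg1*, a host whose exons are known for their poor conservation beside the conserved snoRNAs, was the most abundant member. It stood at 127, 130 and 128 FPKM in WT 1 to 3 and at 108, 228 and 124 in cKO 1 to 3. Thus cKO 1 and cKO 3 lay below every WT library and cKO 2 lay well above. The fitted log2 fold change was 0.17 (95% interval -0.42 to 0.76, adjusted p = 0.573).

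*Snhg6* followed, at 91.5, 95.1 and 94.3 FPKM in WT and at 85.7, 135 and 119 in cKO 1 to 3. It had the smallest gap of the 9 tested members between cKO 2 and cKO 1, a ratio of 1.58, and its log2 fold change was 0.25 (95% interval -0.12 to 0.61, adjusted p = 0.195). *Snhg8*, the host of the pseudouridylation guide *Snora24*, was at 86.3, 86.6 and 84.1 FPKM in WT and at 57.8, 136 and 87.7 in cKO 1 to 3. Here cKO 3 lay just above the WT libraries while the other cKO libraries lay well to either side, and the log2 fold change of 0.042 (95% interval -0.59 to 0.67) was not called.

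*Snhg5*, the host of the methylation guides *Snord50a* and *Snord50b*, was at 53.9, 53.3 and 54.4 FPKM in WT and at 30.6, 93.6 and 47.6 in cKO 1 to 3. Its mean was thus nearly the same in both genotypes, 53.9 ± 0.557 FPKM in WT and 57.3 ± 32.6 in cKO (SD, n = 3 each). *Gas5* behaved in a like way, with 42.5, 43.8 and 43.4 FPKM in WT and 28.3, 67.3 and 33.6 in cKO 1 to 3, means of 43.2 ± 0.617 and 43.0 ± 21.1. The log2 fold changes were -0.063 (95% interval -0.88 to 0.76) for *Snhg5* and -0.11 (-0.78 to 0.56) for *Gas5*, and the adjusted p values were 0.882 and 0.752. Both intervals span changes in either direction.

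*Snhg12* had the largest gap within cKO, a ratio of 3.33 between cKO 2 and cKO 1. It was at 33.0, 35.9 and 31.7 FPKM in WT and at 23.8, 79.4 and 39.8 in cKO 1 to 3, and its log2 fold change was 0.33 (95% interval -0.55 to 1.21, adjusted p = 0.461). *Snhg3*, the host of the H/ACA snoRNAs *Snora73a* and *Snora73b*, was the only member whose cKO values all exceeded the WT values. It was at 32.7, 30.8 and 26.1 FPKM in WT and at 33.1, 83.0 and 46.6 in cKO 1 to 3, although cKO 1 exceeded the highest WT library by little. The log2 fold change was 0.74 (95% interval 0.042 to 1.44), with a limma p of 0.0407 that became 0.0604 after adjustment. Scaling to the same FPKM total lowered it to 0.19, and a correction for GC content and length turned it to -0.34, neither of them called. *Rcc1*, which overlaps it on the same strand, was called higher (0.41, adjusted p = 0.00693), at 34.3, 29.2 and 36.5 FPKM in cKO 1 to 3. The part of *Rcc1* reads in the *Snhg3* values was not tested.

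*Snhg7* and *Snhg4* were far less abundant per length than *Snhg3*. *Snhg7* was at 4.70, 4.93 and 6.19 FPKM in WT and at 3.46, 6.43 and 6.59 in cKO 1 to 3, the only member with its highest value in cKO 3. *Snhg4* was at 3.68, 3.82 and 4.06 FPKM in WT and at 3.37, 6.52 and 5.31 in cKO 1 to 3. Their log2 fold changes were 0.015 (95% interval -0.49 to 0.52) and 0.28 (-0.15 to 0.72), and neither was called. *Snhg11*, known from neurons, was listed at 0.025 to 0.042 FPKM in all 6 libraries and was not tested. GENCODE calls it protein-coding and RefSeq calls it a long noncoding RNA.

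In WT the order of levels per length was *Snhg1*, *Snhg6*, *Snhg8*, *Snhg5*, *Gas5*, *Snhg12*, *Snhg3*, *Snhg7*, *Snhg4* and *Snhg11*. Of the 9 neighbouring pairs in that order, the ranges over WT libraries overlapped only for *Snhg12* and *Snhg3*. In cKO the ranges overlapped in every neighbouring pair apart from *Snhg3* with *Snhg7* and *Snhg4* with *Snhg11*. The share of each member in the summed FPKM was compared without a test. A higher share of any member lowers the summed share of the others. *Snhg1* gave 26.8% to 27.1% of the summed FPKM of the 10 members in WT and 24.3% to 28.8% in cKO. The shares of 3 members did not overlap between genotypes. No background for such shares was computed, so whether this count is unusual is not known. That of *Snhg3* was 5.54% to 6.88% in WT and 8.85% to 9.94% in cKO. *Gas5* gave 8.94% to 9.18% in WT and 6.57% to 8.05% in cKO, and *Snhg8* gave 17.8% to 18.1% in WT and 15.5% to 17.2% in cKO.

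The common movement was seen most directly in the sum. The 10 members summed to 476, 485 and 472 FPKM in WT 1 to 3 and to 374, 835 and 511 in cKO 1 to 3. In cKO 1, 8 of the 9 tested members lay below every WT library and *Snhg3* lay above. In cKO 2, all 9 lay above every WT library, and in cKO 3, 6 lay above and 3 below. The median ratio of the members to their WT mean was 0.711 in cKO 1, 1.69 in cKO 2 and 1.19 in cKO 3, while the median over all tested genes was 1.02, 1.05 and 1.04. These ratios were taken on the FPKM values as deposited, before division by the size factors (1.00 to 1.01). Whether the deposited values had already been brought to a common level was not tested. Of all tested genes, 47.9% lay above and 45.0% below every WT library in cKO 1, 50.7% and 41.6% in cKO 2, and 49.7% and 44.1% in cKO 3.

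cKO 2 was the highest of the 6 libraries in 8 of the 9 members, against 16.5% of all tested genes. cKO 1 was the lowest in 8 of the 9, against 19.7%. The members' median range, highest minus lowest on the log2(FPKM + 1) scale, was 0.048 among WT libraries and 1.20 among cKO libraries, and over all tested genes these medians were 0.085 and 0.30. Every member's difference between cKO 2 and cKO 1 lay between the 95.9 and the 99.9 percentile of all tested genes. The order cKO 1, cKO 3, cKO 2 is also the order of the estimated depths. The WT libraries were as deep as cKO 2 and lay below it in all 9 members. They also differ from it in genotype and sex. The part of depth in this order was not tested.

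**Figure D2:**
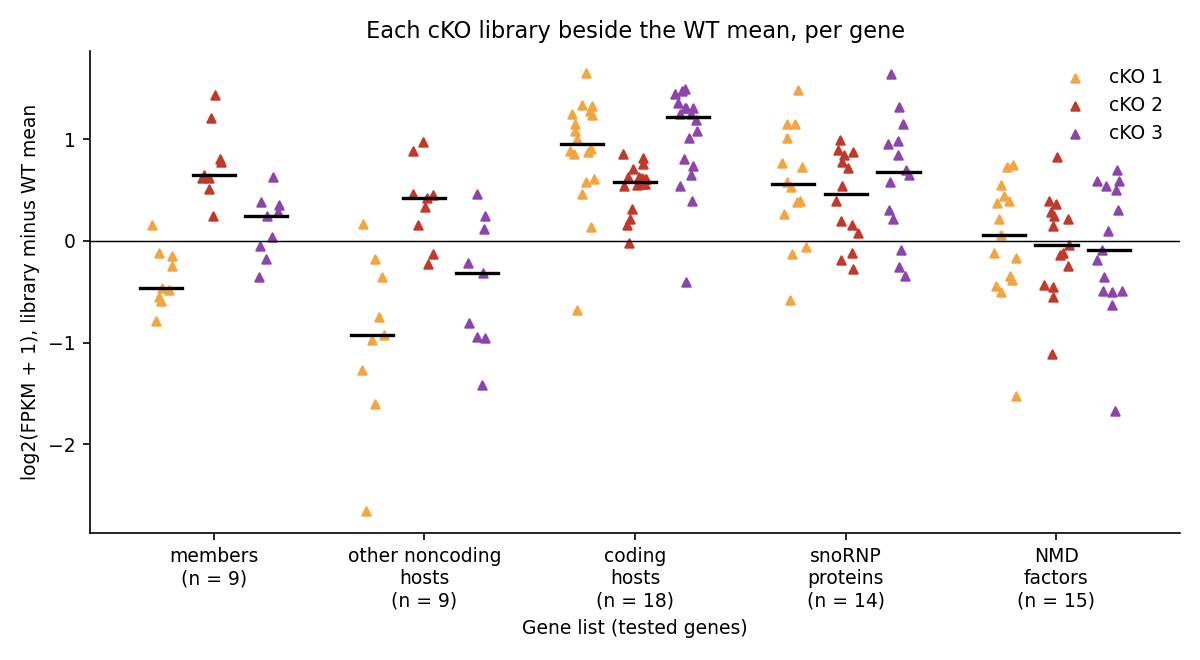
Difference of each cKO library from the WT mean, in log2(FPKM + 1), for the tested genes of 5 lists, with a black line at each median. The members have medians of -0.47 in cKO 1, 0.65 in cKO 2 and 0.25 in cKO 3, the other noncoding hosts follow the same order, and the coding hosts lie lower in cKO 2 than in the other cKO libraries.

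The calls therefore rested on single libraries. Without cKO 2, 74.1% of all tested genes were called in either direction, and 2 members were called, both lower, *Gas5* (log2 fold change -0.47 ± 0.074 SE, adjusted p = 0.00171) and *Snhg5* (-0.48 ± 0.17, adjusted p = 0.0415). Leaving out cKO 1 in its place, 65.3% of all tested genes were called and 3 members were called, all higher. These were *Snhg3* (1.04, adjusted p = 0.0121), *Snhg4* (0.51, adjusted p = 0.00576) and *Snhg6* (0.44, adjusted p = 0.00351). No member was called in both of these fits. With all 6 libraries and a correction for GC content and length, which 7 of the 9 members could enter, *Snhg6* (-0.68, adjusted p = 0.00767) and *Snhg8* (-0.77, adjusted p = 0.0450) were called lower. The share of all tested genes called in that corrected fit was not computed. The median over the members was -0.11 without cKO 2 and 0.39 without cKO 1. *Snhg3*, *Snhg4* and *Snhg6* had a positive value in each fit that left out 1 library.

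**Figure D3:**
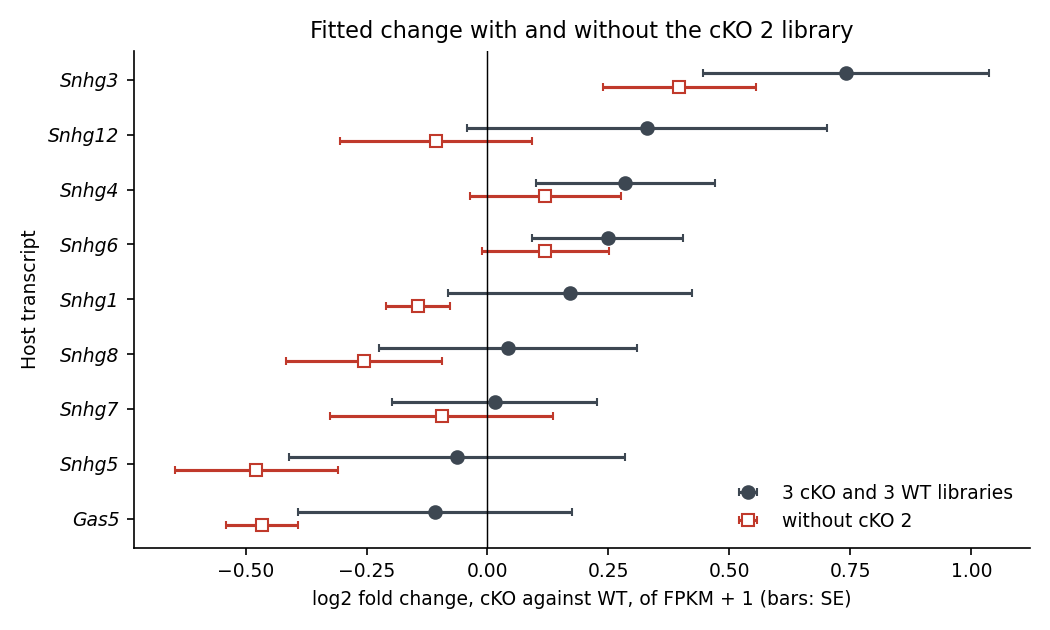
Fitted log2 fold change of FPKM + 1 in cKO against WT for the 9 tested members, with all 6 libraries (filled circles) and without cKO 2 (open squares), bars giving the SE. Leaving out cKO 2 moves every member to the left, from 0.33 to -0.11 for *Snhg12*, and *Snhg3* stays highest in both fits.

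Some snoRNAs inside the members have rows of their own, 8 rows in 5 hosts, and their values were mostly 0 or irregular. The rows measure RNAs of 74 to 137 nucleotides, shorter than the assumed fragment length of 200, and poly(A) selection does not keep mature snoRNAs. *Snord47*, a methylation guide inside *Gas5*, was listed at 11616 FPKM in WT 1 and 16873 in cKO 2 and at 0 in the other 4 libraries. *Snord22*, inside *Snhg1*, was at 244, 153 and 29.1 FPKM in WT and at 1422, 538 and 682 in cKO 1 to 3, so cKO 2 was here the lowest cKO library. *Snora16a*, inside *Snhg12*, was at 17.2 to 17.9 FPKM in WT and cKO 2 and at 0 in cKO 1 and cKO 3, and *Snora44* was above 0 in cKO 3 alone (69.6 FPKM). *Snord87*, *Snora24*, *Snora61* and *Snord99* were listed at 0 in all 6 libraries. No test was made of these rows.

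Other noncoding snoRNA hosts mostly showed the same order of libraries. Of 14 such genes listed, 13 had a row and 9 were tested, of which 1 was called higher and 2 lower. *Snhg10*, the host of a Cajal body RNA, rose from 5.99, 7.01 and 7.26 FPKM in WT to 7.61, 8.83 and 9.63 in cKO 1 to 3 (log2 fold change 0.32 ± 0.10 SE, adjusted p = 0.0298). *Snhg17* fell from 5.77, 6.15 and 5.89 FPKM to 1.86, 4.98 and 2.57 (-0.82 ± 0.24, adjusted p = 0.0211). *Snhg20* was at 35.1, 31.9 and 37.4 FPKM in WT and at 10.7, 32.0 and 12.4 in cKO 1 to 3 (-1.05 ± 0.36, adjusted p = 0.0351), so cKO 2 lay among the WT values. *Snhg9* had the widest spread, with 129, 79.0 and 87.3 FPKM in WT and 14.4, 180 and 49.6 in cKO 1 to 3. The values of *Snhg15*, *Snhg16*, *Zfas1*, *Dancr* and *Epb41l4aos* overlapped between genotypes and were not called, with log2 fold changes from -0.28 to 0.11. In 7 of the 9 the cKO libraries took the order cKO 1, cKO 3, cKO 2, as they did in 8 of the 9 members. Of all 10326 tested genes, 2164 took this order. *Snhg14*, *Snhg18*, *Rian* and *Meg3* were at or near 0. Without cKO 2, 7 of the 9 were called, against 74.1% of all tested genes, and *Snhg10* was the only one of these 7 called higher.

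Among 18 listed protein-coding genes with snoRNAs in their introns, a list rich in ribosomal protein genes such as *Rpl3* and *Rpsa*, 15 were called higher and 0 lower, with a median log2 fold change of 0.92. Over all 199 tested protein-coding genes that hold a snoRNA by coordinates, 101 were called higher and 36 lower (median 0.30), and over the 169 of them that are not ribosomal protein genes, 72 and 36 (median 0.14). The median difference of the 18 between cKO 2 and cKO 1 was -0.50 on the log2 scale, against 1.20 for the members. In 2 of the 18, the translation initiation helicases *Eif4a1* and *Eif4a2*, cKO 2 was the highest library and the order was that of the members, and both are named after their values were seen. *Eif4a1* was at 388, 386 and 382 FPKM in WT and at 421, 598 and 505 in cKO 1 to 3 and was called higher (0.38, adjusted p = 0.0356). *Eif4a2* was at 152, 153 and 156 FPKM in WT and at 95.0, 239 and 116 in cKO 1 to 3, and was not called (-0.15 ± 0.31 SE, adjusted p = 0.678).

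All tested genes were also grouped by coordinates, after the values were seen. Of these genes, 25 were annotated as noncoding and held a snoRNA on the same strand, and 7 of them were members. Their median difference between cKO 2 and cKO 1 was 1.05 on the log2(FPKM + 1) scale, and it was 0.80 in the 18 that were not members. The 242 noncoding genes without a snoRNA had a median of 0.088, and the 199 protein-coding genes with a snoRNA had a median of -0.094. In the 30 ribosomal protein genes among these 199, the median was -0.35. cKO 2 was the highest library in 76.0% of the noncoding snoRNA hosts, 66.7% of those that were not members, 18.6% of noncoding genes without a snoRNA and 21.6% of protein-coding genes with 1. Of the 18 noncoding snoRNA hosts that were not members, 8 were called higher and 2 lower, with a median log2 fold change of 0.11.

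**Figure D4:**
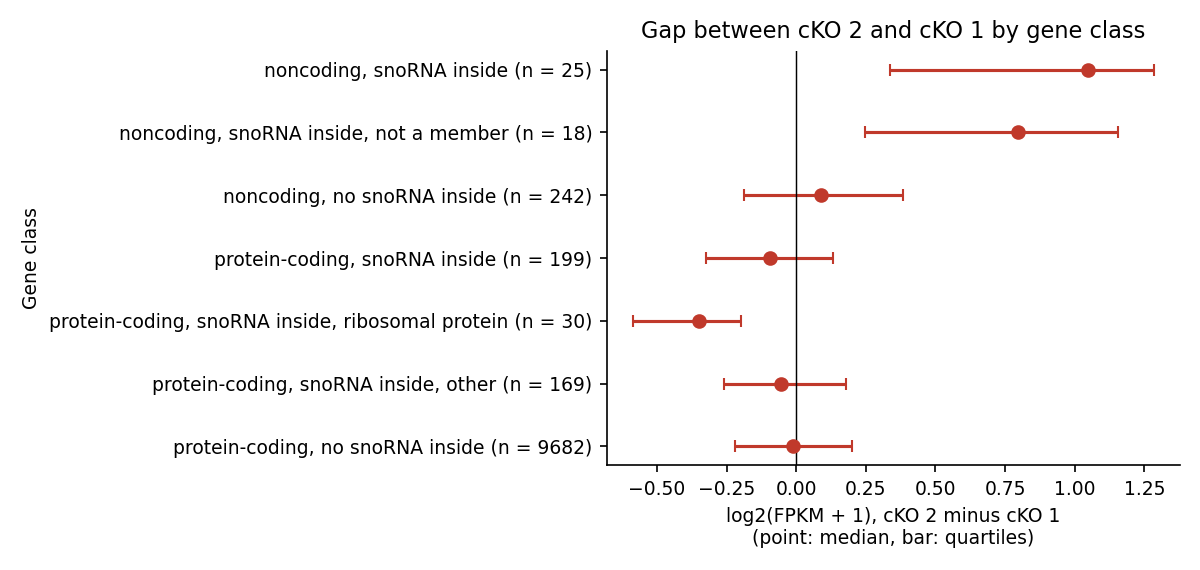
Difference between cKO 2 and cKO 1 in log2(FPKM + 1) by gene class, as the median (point) and quartiles (bar) over the tested genes of each class. The classes of noncoding genes with a snoRNA lie at 1.05 and 0.80, and every other class has its median between -0.35 and 0.088.

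The 5 genes whose profile over the 6 libraries lay closest to the mean profile of the members were *Rabggtb*, *Gdpd3*, *Hyls1*, *Insig1* and *Hmgb3*, by Euclidean distance after each gene's log2(FPKM + 1) values were centred on their mean. *Rabggtb*, a subunit of the enzyme that prenylates Rab proteins, came first at a distance of 0.21 and holds 3 annotated snoRNA loci, among them *Snord45b* and *Snord45c*. It was at 61.9, 58.8 and 63.5 FPKM in WT and at 46.9, 97.6 and 59.4 in cKO 1 to 3. The other 4 hold no annotated snoRNA, and their distances ran from 0.25 to 0.27.

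Of 15 tested factors of NMD, the pathway that degrades host RNAs, 6 were called higher and 6 lower, with a median log2 fold change of -0.039. These shares lie near the 35.8% and 29.8% of all tested genes. *Upf1*, the central helicase of NMD, fell from 45.3, 46.7 and 46.1 FPKM in WT to 15.3, 21.0 and 13.8 in cKO 1 to 3 (log2 fold change -1.43 ± 0.14 SE, adjusted p = 0.000262). *Smg6*, the endonuclease that cuts NMD targets, fell (-0.49, adjusted p = 0.000581), and *Pnrc2*, which links decay to decapping, rose (0.69, adjusted p = 0.000621). In *Upf1* the 3 cKO libraries were all far below WT, and cKO 2 was the highest of them.

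Of 9 genes of the exon junction complex and the nuclear cap-binding complex, 6 were called higher and 1 lower. The paralogs *Magoh* and *Magohb*, core subunits of the junction complex, rose by 0.91 ± 0.099 and 1.10 ± 0.14 on the log2 scale (SE), with adjusted p values of 0.000364 and 0.000581. *Casc3*, the peripheral subunit that stimulates NMD, was the gene called lower, from 32.2, 31.6 and 32.1 FPKM in WT to 13.0, 19.5 and 14.4 in cKO 1 to 3 (-1.01 ± 0.13, adjusted p = 0.000703). *Upf3b* stands in this list and in that of the NMD factors.

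The proteins that package the released snoRNAs mostly rose. Of 14 snoRNP and assembly genes, 10 were called higher and 2 lower, with a median log2 fold change of 0.62. *Nhp2*, of the H/ACA complex, rose from 38.0, 38.3 and 37.1 FPKM in WT to 107, 76.6 and 120 in cKO 1 to 3 (1.37 ± 0.16 SE, adjusted p = 0.000456). *Nop58*, of the C/D complex, rose by 1.00 ± 0.086 (adjusted p = 0.000184), the assembly ATPase *Ruvbl1* by 1.11 ± 0.11 (adjusted p = 0.0003), and *Snu13*, which binds the C/D motif, by 0.79 ± 0.065 (adjusted p = 0.000165). *Naf1* and *Nufip1*, both assembly factors, were the genes called lower (-0.34 and -0.25) and are named after their values were seen. Unlike in the hosts, cKO 2 was the highest library in 1 of these 14 genes.

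**Figure D5:**
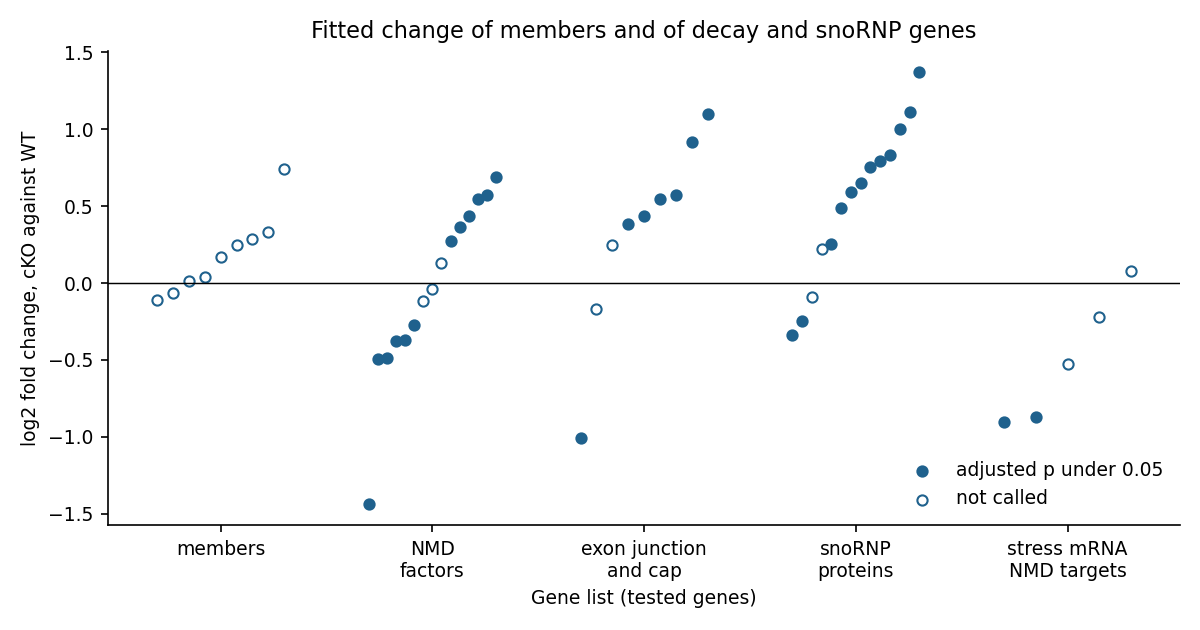
Fitted log2 fold change in cKO against WT for the tested members, NMD factors, exon junction and cap-binding genes, snoRNP proteins and stress mRNAs, with filled points for adjusted p under 0.05. All 9 members are open points, from -0.11 to 0.74, while 12 of 15 NMD factors and 12 of 14 snoRNP proteins are filled.

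No stress mRNA known as an NMD target was called higher in cKO. Of 5 tested, 0 were called higher and 2 lower, *Gadd45b* (log2 fold change -0.87 ± 0.22 SE, adjusted p = 0.00989) and *Gadd45g* (-0.91 ± 0.31, adjusted p = 0.0374), both growth-arrest genes. *Gadd45a*, also an NMD target, was at 30.7, 31.3 and 31.6 FPKM in WT and at 16.6, 33.7 and 17.3 in cKO 1 to 3 and was not called, with cKO 2 again the highest library. Without cKO 2, 4 of the 5 were called, all lower, among them *Gadd45a* (-0.83), while 74.1% of all tested genes were called. When the WT libraries were counted as 1 sample, 1 NMD factor, 4 snoRNP genes, 0 stress mRNAs and 0 of the other noncoding hosts were still called.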

How the data were processed

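Total RNA of sorted DP thymocytes was sequenced in 3 WT and 3 NSrp70-cKO libraries. The authors prepared poly(A)-enriched directional libraries, sequenced them as paired ends, aligned trimmed reads with TopHat (mm10 per the labels) and deposited Cufflinks FPKM values, with 1 value per symbol in each library. Tool versions, annotation and strand setting are not given in the sources used here, and fragment counts were not used here, so the study's count test was not repeated. Groups came from the sample labels.

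FPKM values were divided by a median-of-ratios size factor (1.00 to 1.01), and genes that reached 1 FPKM in at least 3 libraries were kept (10326). Their log2(FPKM + 1) values were fitted by genotype in limma 3.58.1 (R 4.3.3, lmFit, eBayes with a trend). Fold changes are on this scale, which understates low genes. P-values were adjusted by Benjamini-Hochberg over all tested genes, with 0.05 as threshold. The fit was tested on simulated data. To estimate depth, the step that 1 fragment makes was sought in 2614 single-transcript genes, assuming fragments of 200 bases. Symbols were matched to GENCODE M21 (22110 of 23183 by name and 664 by synonym). Python 3.11.15 was used otherwise.

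Members and gene lists were chosen with earlier results of these data known. The text names all 10 members, every other noncoding host with a row, the 3 genes with the smallest adjusted p and any changed at least 2-fold of the NMD, exon junction, snoRNP and stress lists, snoRNA rows inside members, *Nsrp1*, and the 5 genes of nearest profile. Others were named after their values were seen. Same-numbered WT and cKO libraries did not deviate together (correlations -0.022 to 0.038), so the main fit has no replicate block. Alternatives changed scaling, pseudocount, filter, trend, block, GC and length correction, the WT libraries counted as 1 sample, and each library left out.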

Additional observations from a re-analysis of the deposited data

How the results depend on the processing

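Over 160 alternative fits of the 9 members, 24 changed the sign of a value and 8 called it, and no member's call in the reported fit was lost because none was made. The share of all tested genes called was computed only for the reported fit and for the fits without cKO 1 or without cKO 2. Quantile normalization turned *Snhg1* (-0.22), *Snhg6* (-0.096) and *Snhg8* (-0.26) negative. Scaling to the same FPKM total shifted the median of all tested genes from 0.039 to -0.45 and turned *Snhg1* (-0.39), *Snhg4* (-0.17), *Snhg6* (-0.31), *Snhg7* (-0.46), *Snhg8* (-0.51) and *Snhg12* (-0.22) negative, with 5 stress mRNAs called. With a correction for GC content and length, all 7 members that could enter had negative values. These were -0.45 for *Gas5*, -0.18 for *Snhg1*, -0.34 for *Snhg3* and -0.67 for *Snhg5*. *Snhg6* was at -0.68, *Snhg8* at -0.77 and *Snhg12* at -0.071. Of these, 2 members were called lower, and the median was -0.45. As a check of the whole group this fit is void, since only 7 of 9 members had a length and GC content. The lower filter left 1 other noncoding host called. With a replicate block, 1 member was called higher, *Snhg3* (0.74, adjusted p = 0.0312), and the shared numbers pair nothing by the correlations given with the methods. With the WT libraries counted as 1 sample, 1 NMD factor, 0 other noncoding hosts, 4 snoRNP genes and 0 stress mRNAs were called, by construction with fewer samples. Requiring at least 7 pyrimidines left 1 member with a run at its start. Elsewhere the cause was not tested.

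Leaving out 1 library at a time gave 0 to 3 members called higher and 0 to 2 lower, a members' median from -0.11 to 0.39, and 9 to 13 NMD factors, 0 to 7 other noncoding hosts, 8 to 12 snoRNP genes and 1 to 4 stress mRNAs called. The ranges were -0.47 to 0.14 for *Gas5*, -0.14 to 0.39 for *Snhg1*, -0.48 to 0.31 for *Snhg5*, -0.12 to 0.27 for *Snhg7*, -0.26 to 0.35 for *Snhg8* and -0.11 to 0.73 for *Snhg12*. Depth, known only as an estimate, limits *Snhg11* and the snoRNA rows, and 3 libraries a genotype, with cKO libraries so far apart, leave changes within the printed intervals undetected.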
